A study of Mus musculus with 44 samples.

Results

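The AsiSI restriction site in the first coding exon of Arhgap11a was followed as a prey of a fixed break on the same chromosome. Prey junctions on chromosome 2 within 500 bp of position 113847998 (mm10) were taken as junctions of this site, and 2204 of 148726 deposited junctions qualified. The site was chosen by its junctions in the 6 DMSO libraries of the CK-666 experiment, so its share in those libraries is a description and was not tested. High-throughput genome-wide translocation sequencing (HTGTS) amplifies genomic DNA from 1 break, the bait, and reads the sequence joined to it, the prey. The bait was the AsiSI motif at position 13271321 of chromosome 2, which the annotation places in a non-coding exon of Rsu1.

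All cells were mouse embryonic fibroblasts of strain C57BL/6 and the labels give the genotype as WT throughout. AsiSI-MEFs, an inducible cell line that carries the enzyme fused to an oestrogen receptor domain, gave 26 libraries. They received doxycycline at 3 µg per ml for 24 h, which induces the enzyme, and 4OHT at 1 µg per ml for the last 6 h, which brings it into the nucleus. Together with 4OHT, 6 libraries had CK-666, an inhibitor of the actin nucleator ARP2/3, at 100 µM and 6 had DMSO. Another 2 had wiskostatin, an inhibitor of WASP, at 3 µM, against 2 with DMSO. A further 3 had NU7441, an inhibitor of the end-joining kinase DNA-PKcs, at 10 µM with 1 h of pretreatment, against 3 with DMSO. Actin R62D-NLS, a nuclear actin that does not polymerize, was transfected 24 h before induction in 2 libraries, against 2 with empty vector. The last 6 libraries came from MEFs without AsiSI, in which a Cas9 guide transfected 48 h before lysis cut the same bait, 3 with CK-666 and 3 with DMSO, and the labels list 4OHT for them too. The study calls its replicates biological replicates, and p-values measure the spread between these libraries.

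Arhgap11a encodes a GTPase-activating protein, which switches off small GTPases, and is expressed in dividing cells. AsiSI recognizes an 8-base palindrome and leaves 3′ overhangs of 2 bases. A double-strand break is rejoined mainly by non-homologous end joining, which needs little or no shared sequence, or by resection-dependent routes that pair short matching stretches (microhomology). When the ends of 2 breaks are exchanged, the product is a rearrangement, which HTGTS records.

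The motif spans chr2:113847994-113848001, in exon 1 of Arhgap11a (ENSMUSG00000041219), a gene on the minus strand at chr2:113831492-113848661. It lies inside the coding part of that exon (chr2:113847961-113848089, 129 bases) in all 4 annotated transcripts that code there, at coding positions 89 to 96, which are codons 30 to 32. The cut was 663 bp from the outer start of the gene and 299 bp from its nearest annotated transcription start. It was 100.577 Mb from the bait. The nearest AsiSI motifs were 838.22 kb away on the bait side, in an intron of Ryr3, and 327.18 kb away on the other, in Aqr. Because the gene runs on the minus strand, the right end of the break (higher coordinates) carries the promoter and the beginning of the coding sequence. The left end carries the rest of the gene. A right end joined to the bait on the same chromosome copy removes the sequence between the breaks, whereas a left end inverts it. HTGTS reads do not tell which copy was joined.

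The 3 reference stretches show why a precise exchange is visible here, since bait and prey share the motif (capitals) and no base beside it. The first and second are on the plus strand and the last is the sense strand of the gene.
Bait, chr2:13271306-13271335: accctgtcccaGCGATCGCgcaggcgcaca
Arhgap11a plus strand, chr2:113847983-113848012: tcatgtctcctGCGATCGCactgaccgcgg
Arhgap11a sense strand, chr2:113847984-113848013: gccgcggtcagtGCGATCGCaggagacatg

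The joins below are the leading product of each kind, built from the reference as bait and then prey, with the motif bases that were left in capitals. They are shown because a whole motif, 1 base deleted and 2 bases deleted differ only there.
Right end, whole motif: ctgtcccaGCGATCGCactgaccgcggcca
Right end, 1 base deleted: caccctgtcccaGCGACGCactgaccgcgg
Right end, 2 bases deleted: acaccctgtcccaGCGCGCactgaccgcgg
Left end, whole motif: ctgtcccaGCGATCGCaggagacatgaaac
Left end, 1 base deleted: caccctgtcccaGCGACGCaggagacatga
Left end, 2 bases deleted: acaccctgtcccaGCGCGCaggagacatga

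Each of the 26 AsiSI libraries contained both whole-motif joins. The right-end form made up 71 junctions and the left-end form 69, together the commonest products at the site. With 1 base deleted the product numbered 25 junctions in 21 libraries for the right end and 22 in 19 for the left. With 2 bases deleted it numbered 26 in 21 libraries and 23 in 20. The exact 30 bases were found in the deposited reads in each case, for example in 93 reads for the right-end whole motif and 77 for the left. Of these, 25 and 14 reads were listed with another prey position, bait end or overlap.

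Shares of junctions at the site are percentages of a library's junctions on chromosomes 1 to 19, X and Y over 10 kb from the bait. Libraries held between 362 and 18428 deposited junctions, and the 26 AsiSI libraries between 335 and 17479 over 10 kb from the bait. In the 6 DMSO libraries that chose the site, the share was 0.862% at the lowest, 1.54% at the median and 1.93% at the highest, with a mean of 1.51% ± 0.370 (SD, n = 6). In the 7 other control libraries, which the choice did not use, it was 2.20% ± 0.411 (SD, n = 7), from 1.45% to 2.66%. The lowest of these had 66 site junctions (95% Wilson interval 1.14% to 1.83%), the highest 65 (2.09% to 3.38%). Wilson intervals cover counting error only. The other controls lay on average above the DMSO libraries that chose the site, but the 2 ranges overlapped.

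Of 1108 motifs other than the bait, 377 had 1 or more junctions in the 26 AsiSI libraries. Over the 7 other controls the Arhgap11a site held the third place among the 1108. Above it were the sites at Romo1 with 2.62% ± 0.723 (SD, n = 7) and Nup214 with 2.23% ± 0.843. Below it stood Dnmt3b with 2.01% ± 0.974, Arhgap21 with 1.50% ± 0.463 and Samhd1 with 1.48% ± 0.376. All of these sites lie on chromosome 2, like the bait. The Dnmt3b name stands for a motif in a non-coding exon, Nup214 for one in an intron, and Arhgap21 and Samhd1 are the genes nearest to intergenic motifs. The differences to Romo1, Nup214 and Dnmt3b were smaller than the SD of those sites. In single libraries the Arhgap11a site ranked between first and sixteenth, with a median rank of 4 over the 26 AsiSI libraries. It took 2.77% of all junctions at AsiSI motifs in those libraries, 2180 of 78577. Of the neighbouring motifs, the one in Aqr reached 0.385% ± 0.121 (SD, n = 7) and the Ryr3 motif had 0 junctions in 26 libraries.

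Among the 197 other motifs with at least 100 junctions, the sites in Asb8 (Pearson r = 0.58) and Ociad1 (r = 0.49) were among those whose log2 share varied most like that of Arhgap11a over the 26 AsiSI libraries. The median over the 197 was 0.05. These values share library totals and are given as a description.

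The Cas9 libraries gave the background of the measurement, since their cells carry no AsiSI. Junctions within 500 bp of any AsiSI motif made up 3.30% of a Cas9 library on average and 71.2% of an AsiSI library. They held 2, 1 and 3 site junctions with DMSO (0.0789%, 0.0317% and 0.126%) and 12, 1 and 5 with CK-666 (0.254%, 0.0246% and 0.196%). All 6 shares lay below the lowest AsiSI library. All 24 junctions were within 20 bp of the cut, 8 were whole-motif joins, and 23 had a product (prey position, strand, bait end and overlap) also present in an AsiSI library. These Cas9 libraries were read in the same run as 2 AsiSI libraries, which shared 18 of the 24 products, although no read was identical. The AsiSI libraries of other runs shared 23. Whether the 24 came from the 2 libraries of the same run was not tested.

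**Figure D1:**
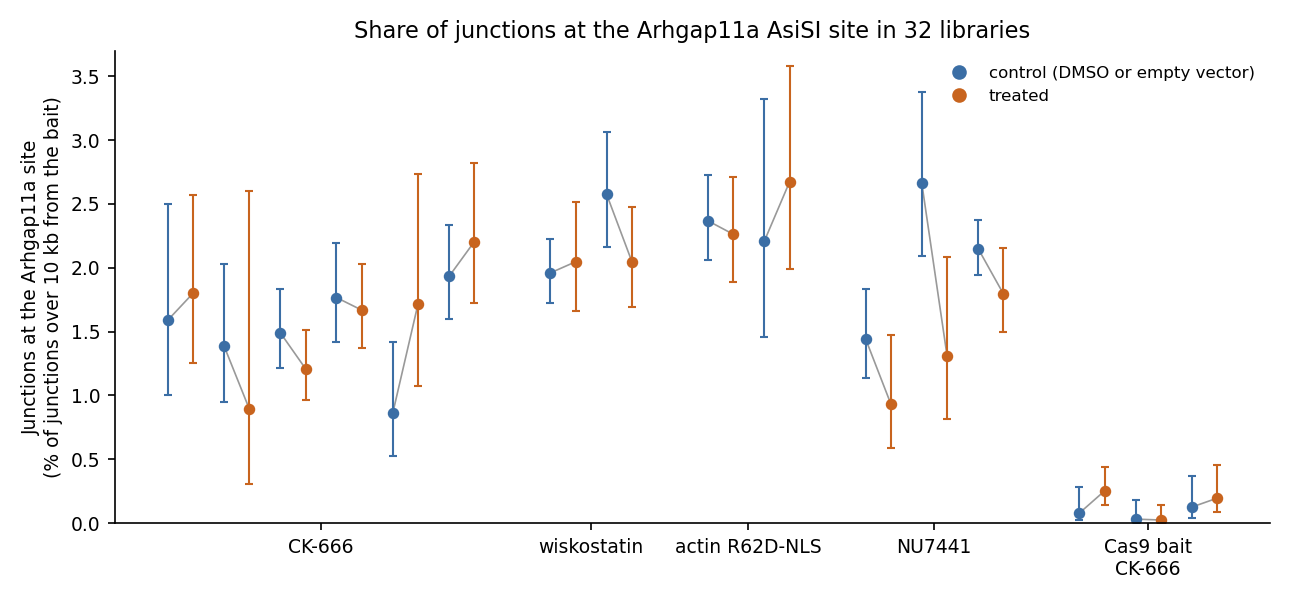
Share of junctions at the Arhgap11a AsiSI site (y axis, % of junctions over 10 kb from the bait) in each of 32 libraries, grouped by experiment, with a line joining the control (blue) and treated (orange) library of a pair and bars for 95% Wilson intervals. AsiSI libraries lie between 0.862% and 2.67% and Cas9 libraries at or below 0.254%.

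Both ends of the Arhgap11a break were joined to the bait about equally often. Of the 2180 junctions in AsiSI libraries, 1133 had the right end and 1047 the left. The right end made up 51.2% ± 7.90 (SD, n = 26) per library, with more right than left ends in 17 libraries and fewer in 9. Numbers of junctions with the promoter-side end and with the rest of the gene therefore differed by less than the spread between libraries.

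Summed over the 26 AsiSI libraries, most ends had lost few bases. The loss was counted from the enzyme's cut on each strand, so 0 means a complete end with its overhang. The median loss was 3 bases for the right end and 4 for the left, and 95% of junctions had lost at most 26 and 29 bases. Alignments that reach past the cut count as negative losses in these values. The median of single libraries ran from -3 bases, as in CK-666 replicate 2 with 3 junctions, to 9.5 in replicate 3 of the NU7441 controls with 376. Losses of 0, 1 and 2 bases, which span the overhang, made up 31.4% of junctions. The right end lost 0, 1 and 2 bases in 123, 95 and 147 junctions and the left end in 97, 99 and 123. The next base was rarer in both, at 27 and 26 junctions. A value of -3 marks prey alignments that cover the whole motif and was found in 136 right-end and 120 left-end junctions. From 3 to 20 bases lost, each number was between 10 and 46, and 221 junctions (10.1%) had lost more than 20 bases.

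Long losses were rare. More than 50 bases were lost in 42 junctions (1.93%) and more than 100 in 26 (1.19%), with 451 bases the largest. By distance from the cut, 9 junctions lay between 300 and 400 bp and 3 between 400 and 500 bp, just inside the window, while 6 lay between 500 and 600 bp, just outside. In all, 55 junctions of the AsiSI libraries lay between 500 bp and 10 kb from the cut, and 0 of the Cas9 libraries. Of the 2220 AsiSI junctions in the gene body, 40 were over 500 bp away.

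**Figure D2:**
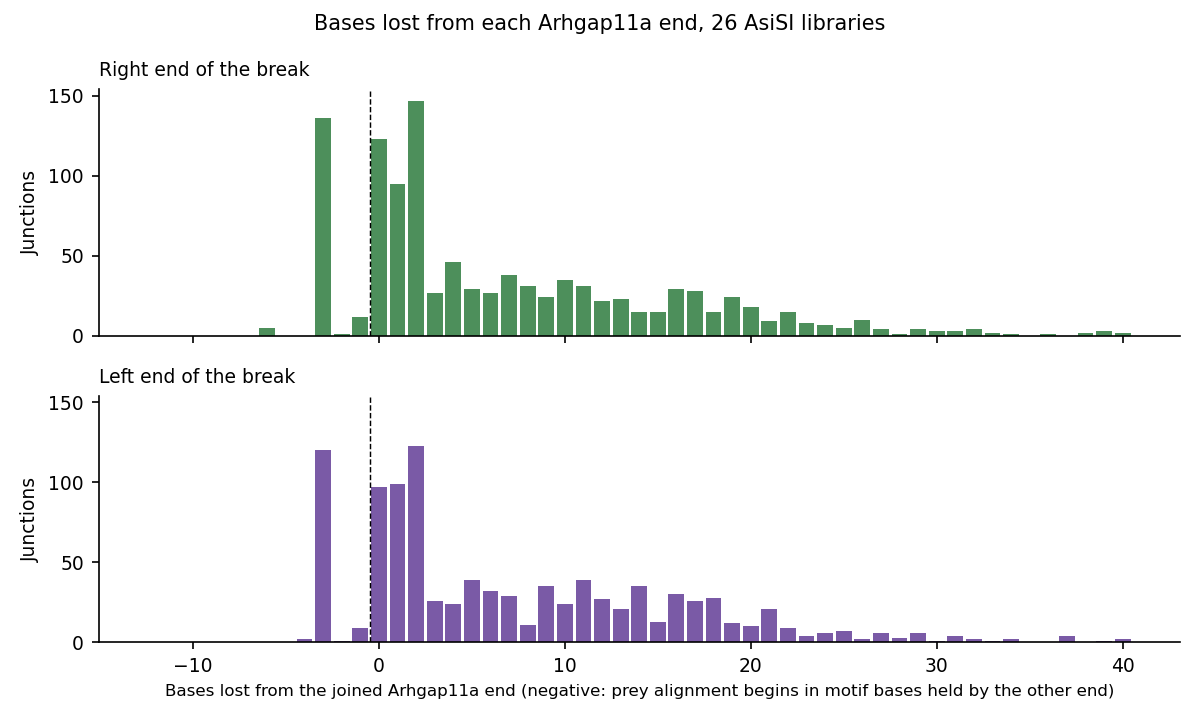
Number of junctions (y axis) by bases lost from the joined Arhgap11a end (x axis; negative values mark alignments that begin in motif bases held by the other end), for the right and left end, summed over 26 AsiSI libraries. Both ends show the same 2 groups of tall bars, at -3 (136 and 120 junctions) and at 0 to 2, followed by a low tail up to about 20 bases.

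The overlap between bait and prey at the junction was most often absent or 1 to 2 nt long. In the 26 AsiSI libraries 672 junctions were blunt (30.8%), 512 had an overlap of 1 nt and 319 of 2 nt. Longer overlaps declined to 29 junctions at 5 nt, and a second maximum stood at 8 nt, the length of the motif, with 142 junctions. Overlaps of 1 to 5 nt made up 45.3% and those of 6 nt or more 13.6% of the junctions. Insertions of unaligned bases were present in 223 (10.2%). Of these, 115 had 1 base, 48 had 2 and 22 had 3. The single inserted base was C in 37, G in 30, T in 25 and A in 23 junctions. Insertions of 10 bases or more were found in 18, the longest of 27 bases.

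The 2 ends differed in the lengths of their overlaps. Right and left ends had 256 junctions each at 1 nt and 71 each at 8 nt. At 2 nt there were 132 right-end and 187 left-end junctions, at 3 nt 70 and 29, and at 7 nt 50 and 16. These counts include products repeated across libraries and are given as a description. The leading product of each end with an overlap of 2 nt or more and at least 3 bases lost shows which bases aligned to both, in capitals, bait first and then the Arhgap11a strand that was joined.
Right end, bait, chr2:13271310-13271325 plus strand: tgtcccagcGATCGCG
Right end, Arhgap11a, chr2:113848005-113848020 plus strand: GACCGCGgccaccctt
Left end, bait, chr2:13271306-13271321 plus strand: accctgtcccagcgAT
Left end, Arhgap11a, chr2:113847971-113847986 minus strand: ATgaaactgcagctac
The right-end product, with 20 junctions in 16 libraries, had an overlap of 7 nt with 1 mismatch and 9 bases deleted. Its bait alignment ran 4 bases past the cut, so not all of the overlap lies on the joined bait end. The left-end product, with 23 junctions in 17 libraries, had an overlap of 2 nt and 12 bases deleted.

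The bases deleted from both partners were counted for the 1957 junctions without insertion, taking a restored motif as 0. The median was 9 bases. A value of 0 was found in 265 (13.5%), 1 base was deleted in 112 (5.72%) and 2 in 74 (3.78%). Larger deletions made up most of the rest, with 3 to 10 bases in 559 (28.6%), 11 to 50 in 844 (43.1%) and more in 46 (2.35%). The others had bases gained over a restored motif, 38 of them more than 2. The median was 9 bases for right-end and 10 for left-end joins.

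The same products came back in many libraries. The 2180 junctions fell into 728 products, of which 423 were seen once. The 299 products present in 2 or more libraries held 1745 junctions (80.0%). Within a library, 141 products had more than 1 copy. In each of the 141, every copy had the bait end at another position in the read, and no product had more than 5 copies in a library. The deposited tables thus hold few copies of any 1 product in every AsiSI library.

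Shares of junction types moved with the number of junctions. Whole-motif joins numbered between 2 and 10 in each AsiSI library, while all site junctions ranged from 3 to 376. Their share was 66.7% of 3 junctions in CK-666 replicate 2 and 1.33% of 376 in replicate 3 of the NU7441 controls. With at most 10 such joins in any library, this share could only be low where site junctions were many, so no p-value is given for the relation. The part of the few copies kept of each product was not tested. The share of ends with at most 4 bases lost, which counts every alignment that reaches past the cut, was 100% in the first of these libraries and 39.4% in the second. Its Spearman correlation with the number of site junctions was -0.91 in the 13 control libraries and -0.83 in the 13 treated ones, given as a description.

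**Figure D3:**
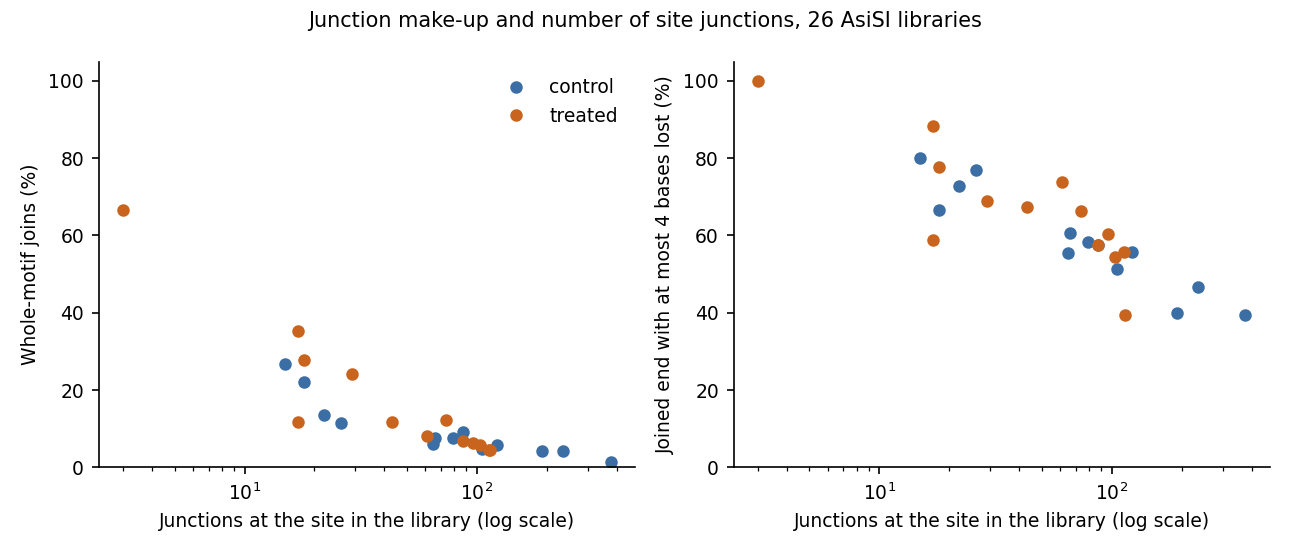
Share of whole-motif joins (left, y axis in %) and of joined ends with at most 4 bases lost (right, y axis in %) against the number of Arhgap11a junctions in the library (x axis, log scale), for 13 control (blue) and 13 treated (orange) AsiSI libraries. Both shares fall from the library with 3 junctions to the one with 376.

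A small class of reads ran over the cut from the other side. In 51 junctions (2.34%), from 19 libraries, the prey alignment started more than 12 bases past the cut and crossed the whole motif. The commonest product had 16 junctions in 14 libraries. Its prey began at 113847938, 60 bases left of the cut, and overlapped the bait by 7 nt (capitals).
Bait, chr2:13271301-13271316: aacacacccTGTCCCA
Arhgap11a, chr2:113847938-113847953: TGTCCCAacacgttgt
In 10 of its 16 reads the motif at the far end of the prey was followed by the first 4 bases of the bait flank in reverse, so that bait sequence stood on both sides of the Arhgap11a fragment. The next product had 11 junctions in 10 libraries and was listed as a left-end join with 17 inserted bases. In 10 of the 11, those bases were the reference directly right of the motif, chr2:113848002-113848018 (actgaccgcggccaccc), and the other had 1 mismatch. These reads held a whole-motif right-end join, followed by sequence of the opposite strand that starts near 113848065. The remaining 24 junctions of this class were of other products.

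Arhgap11a was next set against the other AsiSI sites on chromosome 2. The question was whether ends at this site were joined in the same way as at the other 82 motifs of the chromosome, compared within each of the 13 control libraries (1405 junctions against 12522). The clearest difference was in prey that start more than 12 bases past the cut, a comparison chosen after its values were seen. Such prey made up 2.24% ± 2.19 (SD, n = 13) of the Arhgap11a junctions and 18.9% ± 6.80 of those at the other sites, in library ranges from 0% to 7.69% and from 8.24% to 29.5% that do not overlap. The share was lower at Arhgap11a in 13 of 13 libraries, by 13.4 points on the weighted mean (exact 2-sided sign-flip test, p = 0.000244, the smallest that 13 libraries allow). Summed over the controls, it was 1.92% at Arhgap11a, 15.1% at Samhd1, 23.1% at Arhgap21 and 31.8% at Dnmt3b.

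These prey count among ends with at most 4 bases lost, so each feature is given with and without them. Ends with at most 4 bases lost made up 58.5% ± 12.9 (SD, n = 13) at Arhgap11a and 70.6% ± 9.61 at the other sites, lower at Arhgap11a in 12 of 13 libraries. The weighted difference was -13.8 percentage points (exact sign-flip test over libraries, adjusted p = 0.00146) and -8.60 points with prey past the cut left out (adjusted p = 0.00439). Blunt joins made up 30.8% ± 4.81 against 22.7% ± 5.14, higher at Arhgap11a in 13 of 13 libraries. This difference was 6.44 points (exact sign-flip test, adjusted p = 0.00146) and 3.37 points without such prey (adjusted p = 0.00146). Overlaps of 6 nt or more made up 17.4% ± 9.69 against 23.2% ± 7.69, lower in 12 of 13 libraries, with differences of -5.99 and -7.96 points (exact sign-flip test, adjusted p = 0.00146 for both).

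Against the Dnmt3b, Samhd1 and Arhgap21 sites alone, whose junction numbers are like those of Arhgap11a, these 3 differences did not pass the threshold once prey past the cut were left out. They were then -0.21 points for ends with at most 4 bases lost (exact sign-flip test, adjusted p = 0.902), 1.81 points for blunt joins (adjusted p = 0.721) and -1.20 points for overlaps of 6 nt or more (adjusted p = 0.322). With such prey included they were -10.5 points (adjusted p = 0.00293), 6.33 points (adjusted p = 0.000732) and 0.07 points (adjusted p = 0.913, all by the exact sign-flip test). The 3 sites were not alike in their means over 13 libraries. With such prey included, Arhgap21 had 58.44% ± 10.43 (SD) ends with at most 4 bases lost, near the 58.5% of Arhgap11a. Dnmt3b had 73.97% ± 11.01 and Samhd1 70.69% ± 11.75. Overlaps of 6 nt or more made up 10.8% ± 3.52 at Arhgap21, 16.6% ± 5.83 at Dnmt3b and 17.74% ± 6.18 at Samhd1. Blunt joins made up 25.09% ± 8.45, 21.39% ± 5.12 and 26.26% ± 7.15, each below the mean at Arhgap11a. These sites were not tested singly. Most of the other sites had fewer junctions than Arhgap11a, with 29 of the 82 at 10 or more. Nup214 and Romo1, with 2204 and 2827 junctions in the 26 AsiSI libraries against 2180 at Arhgap11a, were not among these 3 sites. The part of the limit on copies in these differences was not tested.

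The right end made up 51.4% ± 7.25 (SD, n = 13) against 51.9% ± 3.53 at all other sites (difference -1.61 points, exact sign-flip test, adjusted p = 0.378). Against the 3 sites, with prey past the cut left out, the difference was -9.86 points (adjusted p = 0.00586), and with such prey included it was -4.63 points (adjusted p = 0.108). Arhgap11a lay between these sites. With such prey included, the right end made up 63.0% ± 7.68 at Dnmt3b, 55.6% ± 8.75 at Arhgap21 and 44.5% ± 8.91 at Samhd1 (SD, n = 13). Overlaps of 1 to 5 nt made up 42.3% ± 9.38 against 39.9% ± 4.76 (2.86 points, exact sign-flip test, adjusted p = 0.269). Without replicate 3 of the NU7441 controls, the deepest library, that difference was 5.72 points (adjusted p = 0.0164). Against the 3 sites, with prey past the cut left out, it was -1.03 points (adjusted p = 0.902).

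Insertions made up 9.53% ± 4.48 (SD, n = 13) against 14.2% ± 2.91 and did not pass the threshold over all 13 libraries (-3.31 points, exact sign-flip test, adjusted p = 0.0659). They did without replicate 2 of the NU7441 controls (-3.70 points, adjusted p = 0.0403) or without replicate 3 (-5.29 points, adjusted p = 0.0132). Against the 3 sites the difference was -9.43 points (adjusted p = 0.000732). With prey past the cut left out it was 2.59 points in the other direction against all sites (adjusted p = 0.148) and 0.42 points against the 3 (adjusted p = 0.902).

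**Figure D4:**
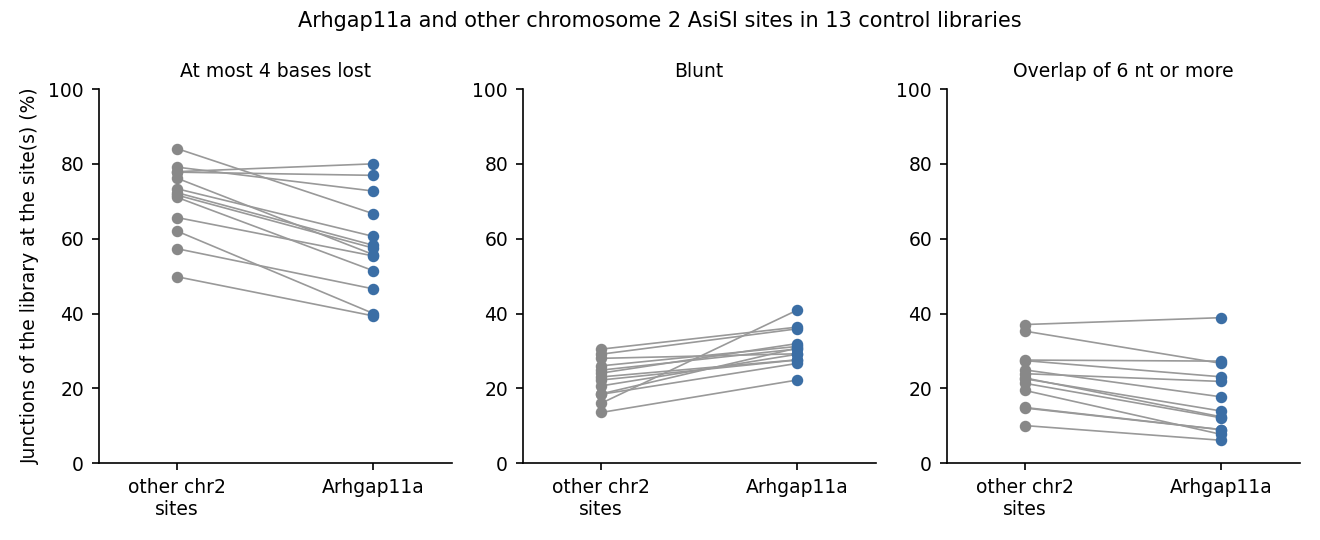
Share of junctions (y axis, %) with at most 4 bases lost (prey past the cut included), blunt, and with an overlap of 6 nt or more, at the other chromosome 2 AsiSI sites (grey) and at Arhgap11a (blue), with a line for each of 13 control libraries. Most lines fall in the first and last panels (12 of 13 libraries each) and all 13 rise in the middle one.

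**Figure D5:**
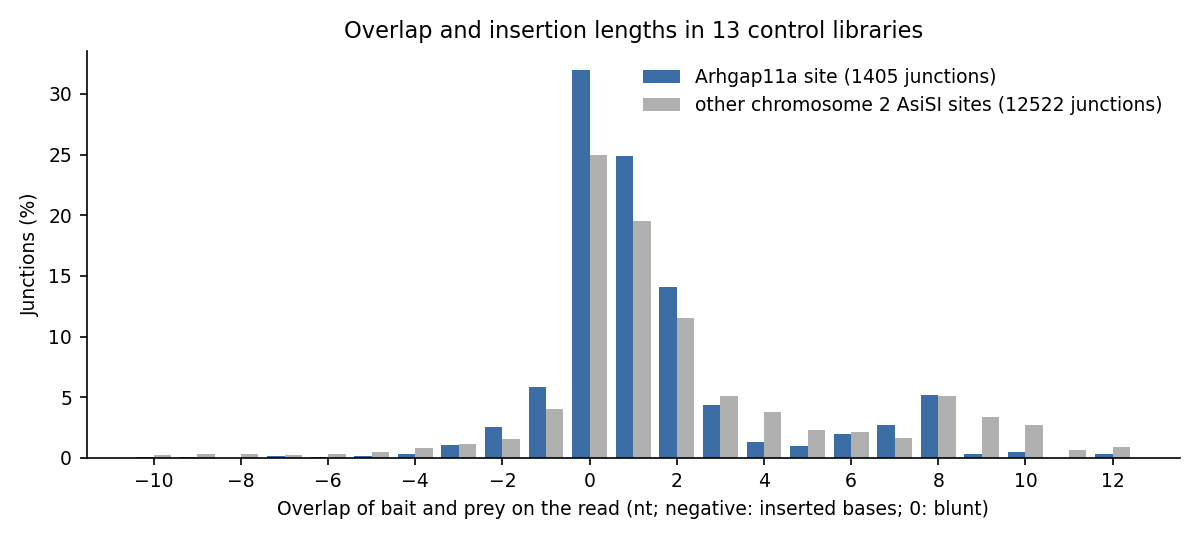
Share of junctions (y axis, %) by length of overlap (x axis, nt; negative values are inserted bases and 0 is blunt) in 13 control libraries, for 1405 Arhgap11a junctions (blue) and 12522 junctions of the other chromosome 2 AsiSI sites (grey). Arhgap11a bars are taller at 0 to 2 nt, both sets have a second maximum at 8 nt, and the grey bars are taller at 9 and 10 nt.

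Inhibition of ARP2/3 by CK-666 left the site's share within the spread of the pairs. A share within a library does not measure how many translocations occur. The paper normalized to bait-only sequences and reported a lower translocation frequency with CK-666, wiskostatin, actin R62D-NLS and NU7441. With CK-666 the share was 0.896% at the lowest, 1.69% at the median and 2.21% at the highest, with a mean of 1.58% ± 0.463 (SD, n = 6), against 1.51% ± 0.370 with DMSO. It was higher than in the paired DMSO library in 3 pairs and lower in 3. The mean log2 ratio was 0.06 ± 0.56 (SD, n = 6 pairs), given without a test because the DMSO libraries chose the site. Replicate 2 rests on 3 junctions, and without replicate 5 the mean was -0.13.

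The share of Arhgap11a ends with at most 4 bases lost was higher with CK-666 in every pair, without passing the threshold over the 6 features. In replicates 1 to 6, 69.0%, 100%, 66.2%, 60.4%, 88.2% and 73.8% of ends were of this kind with CK-666, against 66.7%, 76.9%, 57.5%, 58.2%, 80.0% and 51.4% with DMSO. The weighted difference was 10.2 points (exact 2-sided sign-flip test, p = 0.0312, the smallest that 6 pairs allow, adjusted p = 0.188, BH over 6 features). It was 10.4 points with prey past the cut left out (adjusted p = 0.188). The median loss was lower with CK-666 in replicates 2, 3, 5 and 6, equal in replicate 4 (2 bases) and higher in replicate 1 (1 against 0.5 bases). The direction of the share was the same in replicates 1, 4 and 5, where the CK-666 library held more site junctions than its control (29 against 18, 96 against 79 and 17 against 15), and in the other 3, where it held fewer. The size was not the same. Each difference in replicates 1, 4 and 5 was smaller than any in replicates 2, 3 and 6, from 2.19 points in replicate 4 to 23.1 in replicate 2. The part of junction number in this difference was not tested.

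The other features differed less. The weighted difference was -0.81 points for right ends, 2.66 for overlaps of 6 nt or more, -5.39 for overlaps of 1 to 5 nt, 2.75 for blunt joins and -0.03 for insertions. Adjusted p-values ranged from 0.312 to 0.938 (exact sign-flip test, 6 pairs). Overlaps of 1 to 5 nt were lower in 5 of 6 pairs.

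Wiskostatin and actin R62D-NLS interfere with the same pathway at other steps. With wiskostatin the site's share was 2.05% in both libraries, with 87 and 103 junctions, and 1.96% and 2.58% in their DMSO libraries, with 234 and 122. The first pair was higher and the second lower. The log2 ratio in limma, fitted across 298 AsiSI motifs, was -0.13 ± 0.33 (SE, n = 2 pairs, adjusted p = 0.991, 95% interval -0.81 to 0.54). No motif passed an adjusted p of 0.05 (0 of 298, 0%), and 9 lay under 0.05 before adjustment.

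With actin R62D-NLS the share was 2.26% and 2.67%, with 113 and 43 junctions, against 2.37% and 2.21% with empty vector, with 190 and 22. Here too the 2 pairs pointed in opposite directions. The log2 ratio was 0.10 ± 0.33 (SE, n = 2 pairs, limma adjusted p = 0.998, 95% interval -0.58 to 0.77). Again 0 of 298 motifs were called (0%), with 12 under 0.05 before adjustment.

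Features are given as values in these 2 experiments, since the sign-flip test used for them cannot go below 0.5 with 2 pairs, and no other test was run. Blunt joins were lower with treatment in both pairs of both experiments, at 24 of 87 and 32 of 103 junctions with wiskostatin against 73 of 234 and 39 of 122, and at 27.4% and 32.6% with actin R62D-NLS against 30.5% and 40.9%. The pair differences ran from -8.35 to -0.90 points. Blunt joins are named because no other of the 6 features kept its direction in both experiments. Right ends were higher and overlaps of 1 to 5 nt lower in both wiskostatin pairs. All other features pointed in opposite directions in the 2 pairs of an experiment. With CK-666, blunt joins were higher in 3 pairs and lower in 3. Whole-motif joins numbered 6 and 6 with wiskostatin against 10 and 7, and 5 and 5 with actin R62D-NLS against 8 and 3.

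Inhibition of DNA-PKcs by NU7441 went with a lower share of the site in all 3 pairs. The share was 0.934%, 1.31% and 1.80% with NU7441, with 18, 17 and 114 junctions, and 1.45%, 2.66% and 2.15% with DMSO, with 66, 65 and 376. The 2 groups overlapped. The log2 ratio was -0.62 ± 0.27 (SE, n = 3 pairs, limma adjusted p = 0.233, unadjusted p = 0.029, 95% interval -1.17 to -0.07), so the site was not called. The median log2 ratio of the 298 motifs was 0.34. Every motif counts equally in this median, and each NU7441 library held fewer junctions than its control. The part of the pseudocount (the number added to the junctions before log2) in this median was not tested. Junctions within 500 bp of any AsiSI motif made up 53.7%, 41.5% and 82.9% with NU7441 against 51.6%, 71.5% and 66.8% with DMSO. This summed share was higher in replicates 1 and 3 and lower in replicate 2. Of the 298 motifs 10 (3.36%) were called, 8 lower and 2 higher, and 51 lay under 0.05 before adjustment. Without the pair factor 2 motifs were called. By size of the log2 ratio, Arhgap11a was the 25th lowest.

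The make-up of Arhgap11a joins moved in the same direction in all 3 NU7441 pairs for 4 features. Blunt joins made up 27.8%, 23.5% and 25.4% with NU7441 against 36.4%, 29.2% and 35.9% with DMSO, and the groups did not overlap. Insertions made up 0%, 5.88% and 7.02% against 6.06%, 12.3% and 14.9%. The 0 of 18 junctions in NU7441 replicate 1 allows a share of up to 16.7%. Overlaps of 6 nt or more made up 38.9%, 23.5% and 12.3% against 12.1%, 7.69% and 6.12%, again without overlap of the groups. Ends with at most 4 bases lost made up 77.8%, 58.8% and 39.5% against 60.6%, 55.4% and 39.4%.

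The weighted differences were -9.68 points for blunt joins, -7.48 for insertions, 9.83 for overlaps of 6 nt or more and 2.60 for ends with at most 4 bases lost. They are given without a test, since the sign-flip test cannot go below 0.25 with 3 pairs, and no other test was run. In each pair the NU7441 library held fewer site junctions than its control, while whole-motif joins numbered 5, 2 and 5 with NU7441 and 5, 4 and 5 with DMSO. The part of junction number in these differences was not tested.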

How the data were processed

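HTGTS libraries of mouse embryonic fibroblasts were analysed. The authors amplified sonicated genomic DNA from the bait and sequenced it on a MiSeq. They used BWA for alignment (mm10) and transloc_pipeline with its default filters, keeping mapping qualities over 30; versions are not given in the sources used here. The deposited tables list 1 junction per line with positions and strands of bait and prey. They hold no normalized values, and bait-only reads were not used here, so values are numbers or shares within a library. Hi-C data of the series were not used.

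The site and the comparison lists were chosen with earlier results of these data known. Named were Arhgap11a, the 3 motifs most like it by Pearson correlation among those with at least 100 junctions (1 of them is not reported here), the sites at Dnmt3b, Samhd1 and Arhgap21, and the next motif on either side. AsiSI motifs were located in the GRCm38 reference, 1109 in all and 84 on chromosome 2, and annotated with GENCODE M21. Overlap is the number of read bases aligned to both bait and prey. Junctions within 10 kb of the bait were left out of totals.

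Libraries were paired by replicate number, because the study's source data set each control to 1 within its replicate and each pair shares a sequencing run. Deviations of log2 shares from the group means correlated within pairs between -0.02 and 0.29. Shares were tested with limma (trend, pair as a factor) on the log2 share, with 0.5 added to the junctions and 1 to the total, over 298 motifs with at least 10 junctions, in all 26 AsiSI libraries. Junction features were tested by exact sign-flip tests weighted by junction numbers, adjusted by Benjamini-Hochberg over 6 features. Alternatives were the window (100 bp, 1 kb), repeated products counted once, totals, pseudocount, motif filter, no block, and leaving out replicates. Tools were R 4.3.3, limma 3.58.1, Python 3.11.15, scipy 1.17.1, numpy 2.4.6, pysam 0.24.0, pandas 2.3.3 and matplotlib 3.10.9.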

Additional observations from a re-analysis of the deposited data

How the results depend on the processing

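Of 239 values under alternative settings, 210 kept their direction and their side of the threshold (or stayed within 1 SD where no test was made). The cause of the other changes was not tested. For Arhgap11a against other chromosome 2 sites, the alternatives with the Dnmt3b, Samhd1 and Arhgap21 sites or with prey past the cut left out were chosen after seeing the data. With both, differences were -0.207 points for ends with at most 4 bases lost, 1.81 for blunt joins, -1.20 for overlaps of 6 nt or more, -9.86 for right ends, -1.03 for overlaps of 1 to 5 nt and 0.419 for insertions. With the 3 sites alone, overlaps of 6 nt or more gave 0.0705 and insertions -9.43. With only prey past the cut left out, insertions gave 2.59. Leaving out 1 library gave insertion differences from -5.29 to -2.67 points, past the threshold without replicate 2 or 3 of the NU7441 controls, and differences in overlaps of 1 to 5 nt from 1.84 to 5.72. Counting only junctions at AsiSI motifs raised the mean share to 2.03% in the DMSO libraries of the CK-666 experiment and 3.20% in the other controls, and gave -0.0018 for actin R62D-NLS. CK-666 features lay near 0 for insertions and right ends. Insertions gave 0.1997 points in a 100 bp window, 0.00176 in a 1 kb window, 0.0494 with repeated products counted once, 0.360 with prey past the cut left out, and 0.173 without the replicate block. Right ends gave 0.573 with repeated products counted once. Leaving out 1 pair gave -1.70 to 0.789 for insertions and -5.23 to 2.12 for right ends, and a log2 share ratio from -0.13 to 0.20. Without the replicate block no other result changed its direction or side of the threshold, and NU7441 called 2 motifs in place of 10. It called 6 in a 100 bp window or with a pseudocount of 2, and 20 when only junctions at motifs were counted. Leaving out 1 library gave log2 share ratios from -0.330 to 0.0680 for wiskostatin and -0.0633 to 0.261 for actin R62D-NLS. For NU7441 the ratio lay between -0.80 and -0.43, with adjusted p from 0.15 to 0.492. Libraries with few site junctions limit all shares, down to 3 junctions.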
